A study of Homo sapiens with 12 samples.

Results

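The E2F and RB family described here comprised 10 genes that were taken by name from both deposited count tables and joined by Ensembl identifier: the transcription factor genes *E2F1*, *E2F2*, *E2F3*, *E2F4*, *E2F5*, *E2F7* and *E2F8*, and the pocket protein genes *RB1*, *RBL1* and *RBL2*. They were 10 of the 30358 gene identifiers listed in both tables. All 10 passed the filter on low counts in each line, beside 16389 genes tested in KYSE30 and 17666 in U138MG. The study asked how transcription responds when PTDSS1, an enzyme that makes phosphatidylserine, is blocked by PTDSS1i, the small molecule DS55980254. The poly-A RNA libraries came from KYSE30, an established esophageal squamous cell carcinoma (ESCC) line, and from cultures labelled U138MG, an established glioblastoma (GBM) line. Both lines carry the genotype label WT, and each received 100 nM PTDSS1i or an equal volume of DMSO, the vehicle, for 48 h, in 3 biological replicates per group and 12 libraries in all. The labels place the KYSE30 libraries in one batch and those labelled U138MG in another, so line and batch cannot be told apart and levels were not tested between lines.

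E2F proteins bind DNA at the promoters of genes needed for S phase and mitosis. E2F1, E2F2 and E2F3 are known as activators, E2F4 and E2F5 act mainly as repressors together with pocket proteins, and the atypical E2F7 and E2F8 repress without binding pocket proteins or a DP partner. The pocket proteins RB (from *RB1*), p107 (*RBL1*) and p130 (*RBL2*) hold E2Fs in check until cyclin-dependent kinases phosphorylate them, and p107 or p130 with E2F4 and the MuvB core forms the DREAM repressor of resting cells. Several genes of the family, among them *E2F1*, *E2F2*, *E2F7*, *E2F8* and *RBL1*, are textbook E2F targets themselves, and their transcripts rise and fall with the cell cycle. In bulk cultures, fewer cells of a type (here, for example, fewer cells in cycle) and less RNA per cell cannot be told apart.

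The total count per library lay between 18800932 and 26514658, so 3 counts corresponded to 0.113 to 0.160 CPM (counts scaled to a common library total). A gene was called when its adjusted p was under 0.05 in the quasi-likelihood test of edgeR, with p-values adjusted by Benjamini-Hochberg over all tested genes, and a second rule also required a log2 fold change beyond 1 in either direction. Fold changes are given with their standard error (SE). The family and the gene lists were chosen with earlier results of these data known. Background shares given beside their counts are therefore description and no test. Of the called genes, 48.5% were higher in KYSE30 and 50.2% in the libraries labelled U138MG. With library size as the only scaling these shares were 37.8% and 37.1%, and the median log2 fold change of all genes moved by -0.10 and -0.15 respectively (upper-quartile scaling gave 37.1% and -0.15 in the latter). Most of the lineage markers went against the U138MG label. In its DMSO libraries, 8 of 11 squamous epithelial markers exceeded 10 CPM, against 4 of 12 glial and glioblastoma markers. The keratin *KRT5* stood at 1470 and the E-cadherin gene *CDH1* at 463 CPM. The vimentin gene *VIM* stood at 0.206 and the astrocyte filament gene *GFAP* at 2.36 CPM. *OLIG2* and *S100B* had no counts in any of the 6 libraries of this label. Members of both lists departed from this order. The glial list's *SPARC* and *CD44* stood at 713 and 406 CPM and the squamous keratins *KRT14* and *KRT6A* at 0.198 and 0.488. The summed level of the squamous list was 7452 to 8276 CPM with DMSO and 2898 to 3045 with PTDSS1i, and that of the glial list 1162 to 1185 and 1050 to 1092. In KYSE30, 7 of 11 squamous and 2 of 10 listed glial markers exceeded 10 CPM with DMSO, and *KRT5* stood at 0.0608 and *CD44* at 534 CPM. The sums went from 1166–1198 to 1708–1716 for the squamous list and from 626–675 to 1065–1089 for the glial list. The part that such lineage differences had in the results was not tested.

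In the GENCODE v29 annotation of GRCh38, the activator genes lie apart from one another, with *E2F1* (ENSG00000101412) at chr20:33675683-33686404 and *E2F2* (ENSG00000007968) at chr1:23506430-23531220 on the minus strand and *E2F3* (ENSG00000112242) at chr6:20401906-20493715 on the plus strand. The repressor genes are *E2F4* (ENSG00000205250) at chr16:67192169-67198918 and *E2F5* (ENSG00000133740), both on the plus strand. The atypical genes are *E2F7* (ENSG00000165891) at chr12:77021247-77065580 and *E2F8* (ENSG00000129173) at chr11:19224063-19241620, both on the minus strand. Of the pocket protein genes, *RB1* (ENSG00000139687) at chr13:48303726-48599436 and *RBL2* (ENSG00000103479) at chr16:53433977-53491649 are on the plus strand and *RBL1* (ENSG00000080839) at chr20:36996349-37095995 is on the minus strand.

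Promoter sequence was available from RefSeq (GRCh38.p14) for 8 of the 10 genes, as windows of 250 bases before a start site. *E2F5* and *E2F8* had no window and were not searched. The windows were searched on both strands for the E2F motif, spelled TTTCCCGC, TTTCGCGC, TTTGCCGC or TTTGGCGC, and for the cell cycle homology region (CHR) motif TTTGAA, which DREAM is known to bind. No letters of the E2F and CHR motifs overlapped in these windows. The E2F motif lay in a window of *E2F1*, *E2F2*, *E2F3* and *RBL1*, against 2.79% of all 35116 windows in the table, and the CHR motif only in that of *E2F3* among these genes, against 13.3% of all windows. The 120 bases next to the start are printed 5′ to 3′ on the gene's strand for those 4 genes, and for *E2F7*, which held neither motif and whose response differed most between the lines. Capitals mark the E2F motif.
E2F1 (chr20:33686386-33686505, minus strand): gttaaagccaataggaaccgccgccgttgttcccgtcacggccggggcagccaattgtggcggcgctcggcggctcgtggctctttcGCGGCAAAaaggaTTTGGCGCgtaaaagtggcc
E2F2 (chr1:23531234-23531353, minus strand): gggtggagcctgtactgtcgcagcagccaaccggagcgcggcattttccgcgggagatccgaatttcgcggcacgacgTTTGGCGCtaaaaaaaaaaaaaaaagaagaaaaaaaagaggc
E2F3 (chr6:20401759-20401878, plus strand): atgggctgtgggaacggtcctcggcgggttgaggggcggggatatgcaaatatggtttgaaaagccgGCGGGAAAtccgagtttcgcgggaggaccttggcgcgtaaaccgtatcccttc
RBL1 (chr20:37095998-37096117, minus strand): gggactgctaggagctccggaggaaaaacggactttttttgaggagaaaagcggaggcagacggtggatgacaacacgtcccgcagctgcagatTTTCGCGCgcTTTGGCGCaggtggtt
E2F7 (chr12:77065570-77065689, minus strand): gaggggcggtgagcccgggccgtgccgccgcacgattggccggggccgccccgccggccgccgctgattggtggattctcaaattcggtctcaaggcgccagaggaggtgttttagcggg

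*E2F1* and *RBL1* each held 2 matches close to the start, whose first bases lay 33 and 20 bases before it in *E2F1* and 26 and 16 bases before it in *RBL1*. The single match of *E2F2* began 42 bases and that of *E2F3* 53 bases before the start. In *E2F1* one match, and in *E2F3* the only match, is read on the opposite strand, where the capitals appear as GCGGCAAA and GCGGGAAA. The windows of *E2F4* and *RBL2* also held neither motif. Those of *RBL2* belong to starts 494 and 1642 bases from the GENCODE start of the gene, against 14 bases for *E2F4*. The bases just before the GENCODE start of *RBL2* were therefore not searched. The only window of *RB1* belongs to a start that lies 172724 bases from the start of the gene in the GENCODE annotation, so its main promoter was not searched. A match is a description of letters, and none of these data measured binding.

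In KYSE30 cells, 8 of the 10 family genes fell with PTDSS1i and 0 rose. The background shares for genes tested in this line were 32.0% called lower and 30.1% called higher. The genes *E2F1*, *E2F2*, *E2F7*, *E2F8* and *RBL1*, fell past a log2 fold change of -1, which is 5 of 10 against 7.04% of all tested genes. The median log2 fold change of the family was -0.93, beside -0.03 for all tested genes. In 7 of the 10 genes the treatments did not overlap, always with PTDSS1i below DMSO, a share close to the 66.3% of all tested genes without overlap.

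In the libraries labelled U138MG the family split. *E2F3*, *E2F4*, *E2F5* and *E2F7* rose, *E2F2*, *E2F8*, *RBL1* and *RBL2* fell, and *E2F1* and *RB1* were not called. These 4 of 10 in each direction stood beside background shares of 33.9% called higher and 33.6% called lower, so the number of calls was near that of any gene. Only *E2F2* and *E2F8* fell past a log2 fold change of -1, which is 2 of 10 against 11.6% of all tested genes. The family median was 0.04, beside -0.03 for all tested genes, and the treatments did not overlap in 8 of 10 genes against 71.4% of all tested genes.

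**Figure D1:**
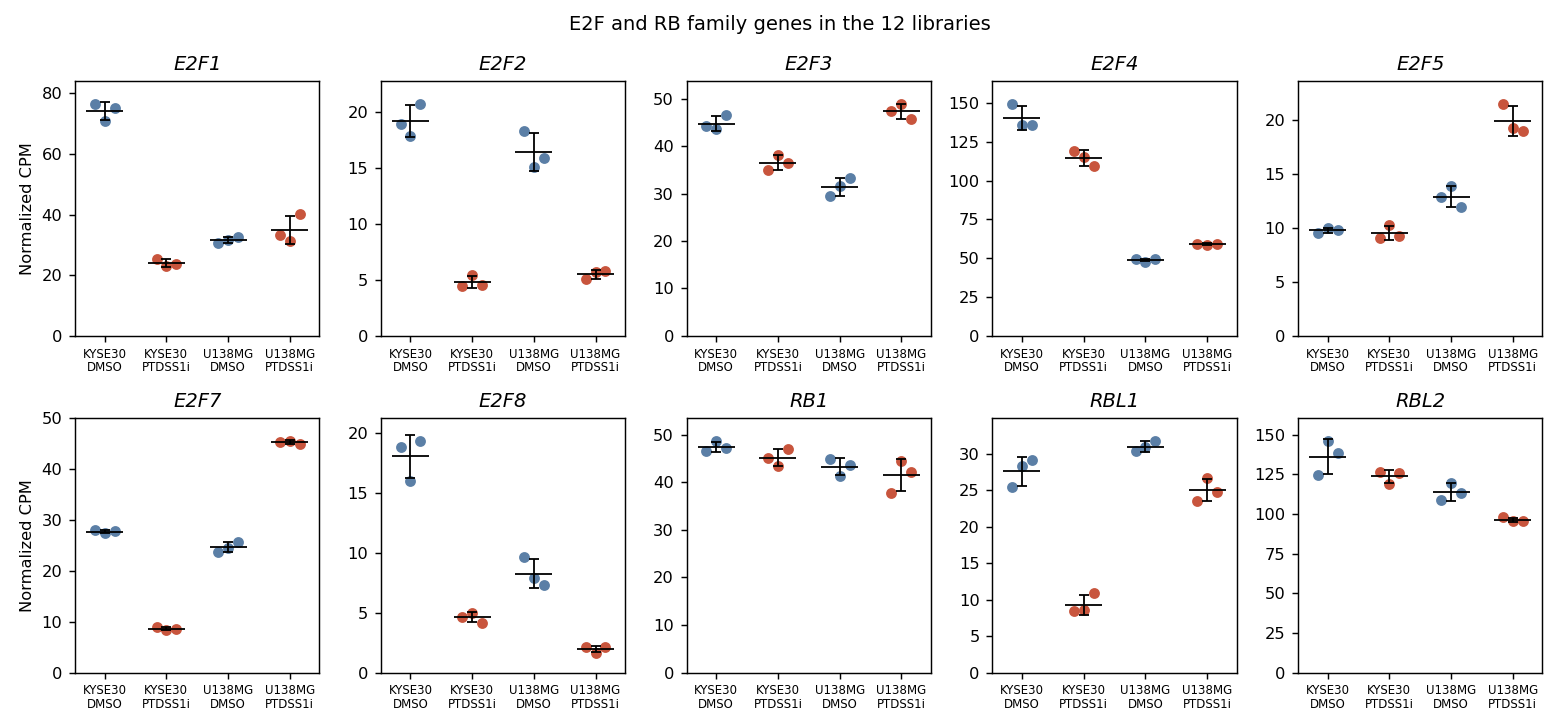
Normalized CPM (vertical axes, starting at 0) of the 10 genes in the 12 libraries, with 1 point per library, a line at the mean of each group and bars of 1 SD (n = 3). *E2F2* and *E2F8* lay lower with PTDSS1i under both labels, whereas *E2F7* fell from 27.7 to 8.62 in KYSE30 and rose from 24.7 to 45.3 in the libraries labelled U138MG.

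The 3 activator E2Fs responded differently from one another. *E2F1* had 76.4, 70.9 and 75.3 normalized CPM in the KYSE30 DMSO libraries and 25.4, 23.0 and 23.9 in the PTDSS1i libraries. The groups lay far apart, and the mean fell from 74.2 ± 2.93 to 24.1 ± 1.20 (SD, n = 3), a log2 fold change of -1.62 (SE 0.063, adjusted p = 2.44e-15). With the U138MG label, *E2F1* had 30.7, 31.5 and 32.7 normalized CPM with DMSO and 33.2, 31.4 and 40.2 with PTDSS1i. Here the groups overlapped, PTDSS1i replicate 3 stood above the other libraries, and the log2 fold change of 0.15 (SE 0.078) was not called (adjusted p = 0.107). It was called higher without PTDSS1i replicate 2 (0.23, adjusted p = 0.0134) and without the filter on low counts (0.18, adjusted p = 0.0152), and stood at -0.0017 with library size as the only scaling.

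*E2F2*, also an activator gene, fell under both labels. Its KYSE30 values were 18.9, 17.8 and 20.7 normalized CPM with DMSO and 4.47, 5.403 and 4.499 with PTDSS1i, a log2 fold change of -2.005 (SE 0.11, adjusted p = 5.36e-13). The libraries labelled U138MG gave 18.3, 15.1 and 15.9 with DMSO and 5.05, 5.66 and 5.79 with PTDSS1i, a log2 fold change of -1.57 (SE 0.11, adjusted p = 2.98e-13). In both lines every PTDSS1i library lay below every DMSO library, and the means fell to 25.0% and 33.5% of the DMSO mean.

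*E2F3* moved in opposite directions. In KYSE30 it went from 44.3, 43.5 and 46.5 normalized CPM with DMSO to 35.0, 38.2 and 36.4 with PTDSS1i, a log2 fold change of -0.29 (SE 0.062, adjusted p = 2.88e-04). It went from 29.5, 31.7 and 33.2 to 47.4, 48.8 and 45.7 under the U138MG label, a log2 fold change of 0.59 (SE 0.058, adjusted p = 5.58e-10). The groups did not overlap in either line, and the PTDSS1i mean was 81.6% of the DMSO mean in KYSE30 and 150.4% in the libraries labelled U138MG.

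Among the repressor E2Fs of resting cells, *E2F4* changed little and with opposite sign. KYSE30 had 149, 136 and 136 normalized CPM with DMSO and 119, 115 and 109 with PTDSS1i, a log2 fold change of -0.29 (SE 0.055, adjusted p = 8.21e-05). The libraries labelled U138MG had 49.2, 47.8 and 49.4 with DMSO and 59.3, 58.4 and 59.3 with PTDSS1i, a log2 fold change of 0.27 (SE 0.047, adjusted p = 1.00e-05). Replicates lay close together, so that changes of about 20% left the groups apart. The size depended on the processing, with log2 fold changes of 0.13 to 0.30 under the U138MG label over the alternatives (adjusted p up to 0.0195). In KYSE30 they ran from -0.40 to -0.24, and both calls were kept throughout.

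*E2F5* had 9.58, 10.0 and 9.78 normalized CPM in KYSE30 with DMSO and 9.09, 10.3 and 9.29 with PTDSS1i. These groups overlapped, and the log2 fold change of -0.04 (SE 0.10) was not called (adjusted p = 0.758). Its values of 12.9, 13.9 and 11.9 with DMSO and 21.5, 19.3 and 19.0 with PTDSS1i under the U138MG label did not overlap, and the gene rose by a log2 fold change of 0.63 (SE 0.086, adjusted p = 2.95e-07). Exons of *E2F5* share 18.6% of their length with genes on the opposite strand, and the library kit does not mark strand. One of these, *RBIS* (named *C8orf59* in the annotation), had 32.4 ± 2.41 normalized CPM with DMSO and 37.1 ± 1.33 with PTDSS1i under the U138MG label (SD, n = 3), a log2 fold change of 0.20, and in KYSE30 a log2 fold change of -0.08. Reads in the shared stretch cannot be told apart.

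The atypical repressors *E2F7* and *E2F8*, whose proteins can pair with each other, parted in the libraries labelled U138MG. In KYSE30 *E2F7* had 28.0, 27.4 and 27.7 normalized CPM with DMSO and 8.95, 8.41 and 8.50 with PTDSS1i, a log2 fold change of -1.68 (SE 0.081, adjusted p = 8.83e-14). The libraries labelled U138MG had 23.8, 24.5 and 25.7 with DMSO and 45.4, 45.5 and 44.9 with PTDSS1i, a log2 fold change of 0.87 (SE 0.059, adjusted p = 1.38e-13). The treatments did not overlap in either line, with the PTDSS1i libraries below DMSO in KYSE30 and above it under the U138MG label.

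*E2F8* had 18.8, 16.03 and 19.4 normalized CPM in KYSE30 with DMSO and 4.66, 5.00 and 4.17 with PTDSS1i, a log2 fold change of -1.98 (SE 0.11, adjusted p = 1.31e-12). Those labelled U138MG had 9.64, 7.86 and 7.32 with DMSO and 2.11, 1.66 and 2.16 with PTDSS1i, a log2 fold change of -2.06 (SE 0.17, adjusted p = 1.66e-11). The PTDSS1i means were 25.5% and 23.9% of the DMSO means. This was the lowest member in the latter libraries, with raw counts of 48, 36 and 54 per PTDSS1i library.

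The pocket protein genes ranged from no call to a fall past the fold threshold. *RB1*, which encodes the retinoblastoma protein, had 46.6, 48.7 and 47.1 normalized CPM in KYSE30 with DMSO and 45.2, 43.5 and 46.9 with PTDSS1i. Its values under the U138MG label were 44.8, 41.3 and 43.6 with DMSO and 37.8, 44.6 and 42.2 with PTDSS1i. The treatments overlapped in both lines, and neither the log2 fold change of -0.07 (SE 0.059, adjusted p = 0.316) nor that of -0.06 (SE 0.060, adjusted p = 0.403) was called. With library size as the only scaling *RB1* was called lower in both, at -0.18 (adjusted p = 0.0152) and -0.20 (adjusted p = 0.00356), values that include the shift of the median of all genes under that scaling.

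*RBL1*, the gene for p107, had 25.4, 28.2 and 29.05 normalized CPM in KYSE30 with DMSO and 8.44, 8.51 and 10.9 with PTDSS1i, a log2 fold change of -1.56 (SE 0.097, adjusted p = 6.79e-12). In the libraries labelled U138MG it had 30.3, 30.8 and 31.7 with DMSO and 23.6, 26.7 and 24.8 with PTDSS1i, a log2 fold change of -0.31 (SE 0.067, adjusted p = 1.76e-04). The gene thus fell in both, to 33.6% of the DMSO mean in KYSE30 and to 80.7% in the libraries labelled U138MG.

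*RBL2*, the gene for p130, had the highest CPM of the pocket protein genes. KYSE30 gave 124, 146 and 138.3 normalized CPM with DMSO and 126, 119 and 126 with PTDSS1i. These groups overlapped, and the log2 fold change of -0.14 (SE 0.058) was close to the threshold (adjusted p = 0.0414). The call was lost in DESeq2 (adjusted p = 0.108), in a fit of both lines together (adjusted p = 0.101), and without any of DMSO replicates 2 and 3 and PTDSS1i replicates 1, 2 and 3 (log2 fold change -0.15 to -0.09, adjusted p 0.0643 to 0.190). For the U138MG label the values of 109, 120 and 113 with DMSO and 97.9, 95.6 and 95.4 with PTDSS1i did not overlap, and *RBL2* fell by a log2 fold change of -0.24 (SE 0.041, adjusted p = 6.72e-06). Exons of *RBL2* share 18.2% of their length with genes on the opposite strand. One of them, *AKTIP*, had a log2 fold change of 0.30 in KYSE30 and 0.03 under the U138MG label, and reads in the shared stretch cannot be told apart.

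**Figure D2:**
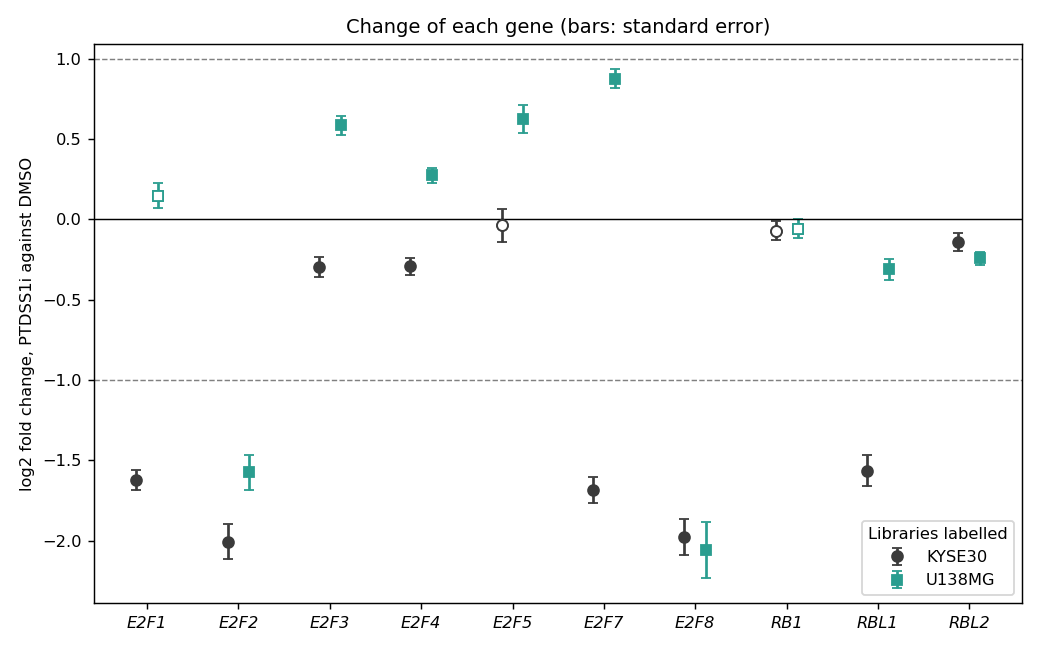
Log2 fold change of each gene with PTDSS1i against DMSO (vertical axis) in KYSE30 (circles) and in the libraries labelled U138MG (squares), with bars of 1 standard error (SE). Filled symbols passed an adjusted p of 0.05 and dashed lines mark a log2 fold change of 1 in either direction, and *E2F1*, *E2F7* and *RBL1* show the widest gaps between the lines, with differences of 1.73, 2.52 and 1.21.

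An interaction term of line and treatment, fitted over 18405 genes, tested whether the response depended on the line. The response of 7 family genes was called higher under the U138MG label than in KYSE30 and that of 0 was called lower, against a background of 25.5% of genes called in that direction and 49.9% in either. *E2F7* differed most, by 2.52 on the log2 scale (SE 0.097, adjusted p = 1.00e-19), followed by *E2F1* with 1.73 (SE 0.10, adjusted p = 1.26e-14) and *RBL1* with 1.21 (SE 0.12, adjusted p = 3.27e-10). *E2F3*, *E2F5* and *E2F4* differed by 0.84, 0.62 and 0.53. The difference of 0.39 for *E2F2* (adjusted p = 0.0393) was lost in DESeq2 (0.39, adjusted p = 0.0718) and when any of 8 libraries was left out, namely DMSO 1 and 3 and PTDSS1i 1 and 3 of KYSE30 and DMSO 2 and 3 and PTDSS1i 2 and 3 under the U138MG label (0.32 to 0.39, adjusted p 0.0529 to 0.124).

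For *E2F8* the difference was -0.11 (SE 0.20, adjusted p = 0.685) and for *RB1* -0.03 (SE 0.086, adjusted p = 0.840), neither of them called. The *RBL2* difference of -0.14 (adjusted p = 0.1003) was called when at least 10 counts were required in every library (-0.18, adjusted p = 0.0317) and when KYSE30 DMSO replicate 2, KYSE30 PTDSS1i replicate 2 or DMSO replicate 1 labelled U138MG was left out (-0.20 to -0.19, adjusted p 0.0147 to 0.0494).

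Levels of different genes were compared as normalized CPM per kb of exon, with exon lengths from GENCODE v29. In KYSE30 with DMSO the order was *E2F4* at 39.1 ± 2.16, *E2F1* at 29.7 ± 1.17, *RBL2* at 18.6 ± 1.501, *E2F3* at 8.67 ± 0.303, *RB1* at 7.36 ± 0.169, *RBL1* at 4.63 ± 0.325, *E2F7* at 4.40 ± 0.0497, *E2F8* at 4.36 ± 0.430, *E2F2* at 3.51 ± 0.261 and *E2F5* at 1.65 ± 0.0384 per kb (SD, n = 3). Neighbours from *RBL1* to *E2F8* had overlapping ranges, and the other neighbours in this order did not. With PTDSS1i *E2F4* still led with 32.0 ± 1.42, but *E2F1* dropped below *RBL2* to 9.62 ± 0.478, and *E2F2* was last with 0.878 ± 0.0970 per kb. *E2F3* and *RB1* then overlapped, as did *E2F5* with *RBL1* and *RBL1* with *E2F7*.

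Under the U138MG label with DMSO, *RBL2* led with 15.6 ± 0.757 per kb, followed by *E2F4* with 13.6 ± 0.241 and *E2F1* with 12.6 ± 0.393. *RB1* with 6.70 ± 0.277 and *E2F3* with 6.09 ± 0.362 had overlapping ranges, and so did *E2F5* with 2.18 ± 0.168 and *E2F8* with 2.00 ± 0.293. Between these pairs lay *RBL1* with 5.20 ± 0.120, *E2F7* with 3.91 ± 0.158 and *E2F2* with 3.01 ± 0.304. PTDSS1i put *E2F4* first with 16.5 ± 0.143 per kb, raised *E2F7* above *RB1* to 7.18 ± 0.0512, and left *E2F8* last with 0.477 ± 0.0664.

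**Figure D3:**
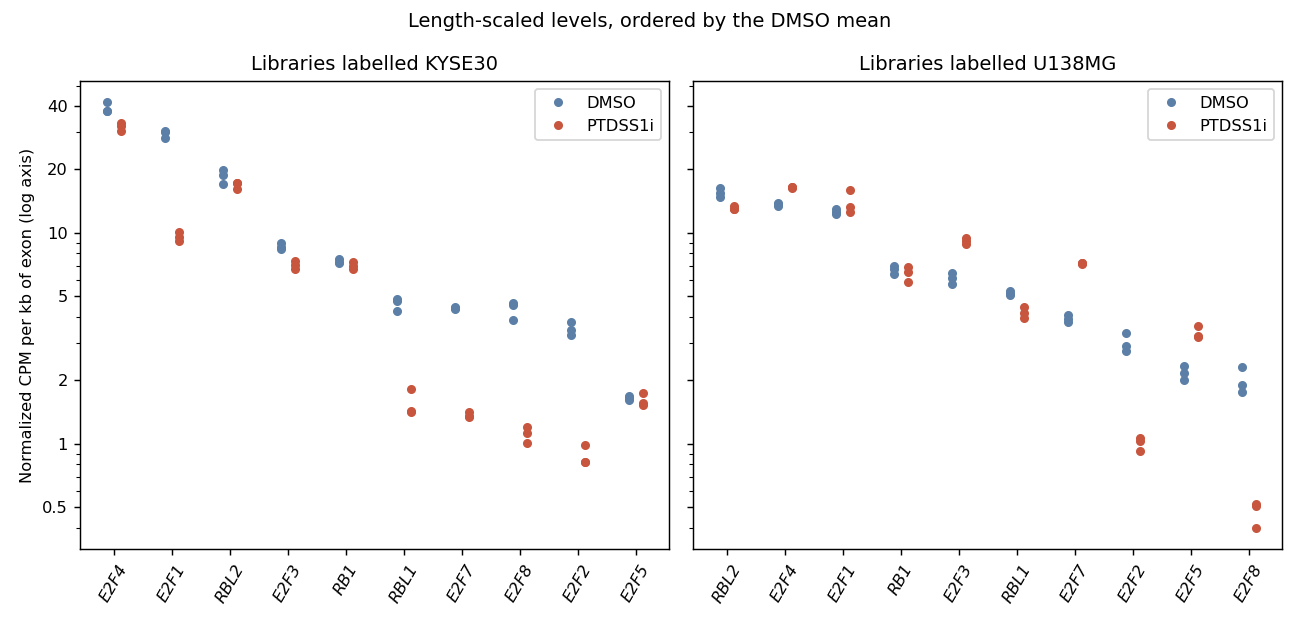
Normalized CPM per kb of exon on a log axis for each gene, ordered by the DMSO mean, with 1 point per library, for the KYSE30 libraries (left) and those labelled U138MG (right). *E2F1* stood second in KYSE30 with DMSO at 29.7 and below *RBL2* with PTDSS1i at 9.62, while *E2F7* rose from 3.91 to 7.18 under the U138MG label.

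As shares of the summed length-scaled level of the 7 E2F genes, *E2F4* gained and *E2F1* lost in KYSE30. *E2F4* made up 42.8% ± 1.29 with DMSO and 59.6% ± 0.804 with PTDSS1i, and *E2F1* 32.4% ± 0.383 and 17.9% ± 0.804 (SD, n = 3). The ranges of the treatments did not overlap for either gene. The activators *E2F1* to *E2F3* together went from 45.8% to 32.8%, and the atypical pair from 9.58% to 4.63%. For the U138MG label *E2F4* had 31.4% ± 0.313 and 31.9% ± 0.809, with overlapping ranges. There the atypical pair held 13.6% with DMSO and 14.9% with PTDSS1i, but within it *E2F7* went from 9.01% to 13.9% and *E2F8* from 4.601% to 0.922%.

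Of the summed pocket protein level, *RBL1* had 15.1% ± 0.518 in KYSE30 with DMSO and 6.10% ± 0.733 with PTDSS1i, against 18.9% ± 0.386 and 17.6% ± 0.637 under the U138MG label (SD, n = 3). *RBL2* held the largest share in every group, between 55.3% and 66.4% on average. A share can move because other genes of the sum moved.

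**Figure D4:**
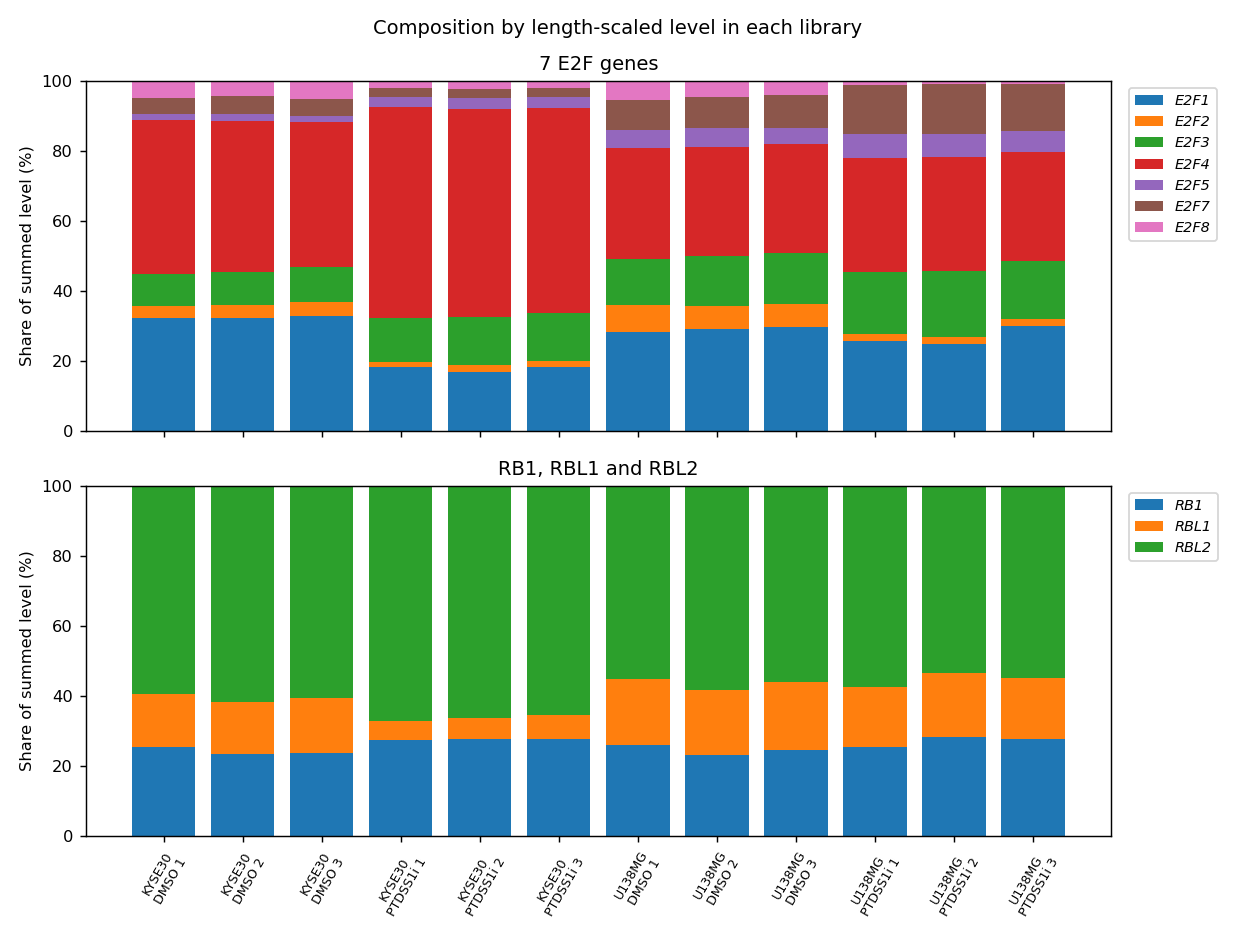
Share of the summed normalized CPM per kb (vertical axis, percent) of each E2F gene (top) and each pocket protein gene (bottom) in the 12 libraries, as stacked bars. *E2F4* grew from 42.8% to 59.6% of the E2F sum in KYSE30, and *RBL1* shrank there from 15.1% to 6.10% of the pocket protein sum.

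E2Fs bind DNA as dimers with DP proteins, and the MuvB core (*LIN9*, *LIN37*, *LIN52*, *LIN54*, *RBBP4*) joins either the pocket proteins in DREAM or the activators B-MYB and FOXM1. In KYSE30, 11 of 12 tested genes of this list fell and 1, *LIN37*, rose (log2 fold change 0.49, adjusted p = 0.0255), with a median of -0.67. Of all tested genes in this line, 32.0% were called lower and 30.1% higher. The *LIN37* call in KYSE30 rested on 1.98 ± 0.150 and 2.79 ± 0.324 normalized CPM, and it was lost in DESeq2, with library size as the only scaling, without the filter on low counts, and when replicate 2 or 3 of DMSO, or replicate 2 of PTDSS1i, was left out. *MYBL2*, which encodes B-MYB, fell from 179 ± 19.4 to 58.3 ± 0.761 normalized CPM (log2 fold change -1.62), and its relative *MYBL1* by -1.43. *LIN9* and *LIN52* fell by -1.01 and -0.76, and *TFDP1*, the main DP gene, by -0.55.

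Under the U138MG label, 7 of the 12 partner genes fell and 4 rose (median -0.25), beside 33.6% and 33.9% of all tested genes. *FOXM1*, a driver of G2/M transcription, fell from 63.2 ± 4.47 to 22.5 ± 1.45 normalized CPM (log2 fold change -1.49) and *MYBL2* by -1.01. *TFDP1* also fell (-0.45). *E2F6*, a repressor that does not bind pocket proteins, rose by 0.45 whereas it fell by -0.20 in KYSE30, and *LIN52*, *HCFC1* and *LIN37* rose by 0.34, 0.30 and 0.27. The *LIN37* rise had SE 0.11 (adjusted p = 0.0266), while library-size or upper-quartile scaling moved the median of all genes by -0.15. *LIN54* was not called (0.22, adjusted p = 0.0722). Of these 12 genes, 8 had a response that was called higher under the U138MG label than in KYSE30 and 1, *TFDP2*, lower. The share of all genes called higher in this test was 25.5%.

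Cyclins D, E and A with their kinases phosphorylate the pocket proteins and so release E2F. In KYSE30, 7 of 9 tested genes of this list fell and 0 rose (median log2 fold change -0.99). Beside them stood 32.0% and 30.1% of all tested genes. The S phase cyclins *CCNE2* and *CCNA2* fell by -1.87 and -1.70, *CDC25A*, the phosphatase gene that activates CDK2, by -1.45, *CCNE1* by -1.03, *CDK2* by -0.99, *CDK4* by -0.75 and *CDK6* by -0.26. The cyclin D gene *CCND1* had 518 ± 2.49 and 528 ± 1.97 normalized CPM and was not called (log2 fold change 0.03, adjusted p = 0.639), and neither was *CCND3* (0.01, adjusted p = 0.887).

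In the libraries labelled U138MG, *CCND1* had 372, 371 and 382 normalized CPM with DMSO and 898, 922 and 925 with PTDSS1i, and rose by a log2 fold change of 1.29 (SE 0.033, adjusted p = 2.42e-23). In all, 5 of 10 tested genes rose and 4 fell (median 0.04), beside 33.9% and 33.6% of all tested genes. Only 3 rose with library size as the only scaling or with upper-quartile scaling. *CCND2* rose from 0.796 ± 0.189 to 4.89 ± 0.634 normalized CPM, while it had at most 3 counts in any KYSE30 library. *CCNE1* rose by 0.52, *CDC25A* by 0.31 and *CDK6* by 0.19, the opposite direction to KYSE30. The *CDK6* rise is little larger in size than the -0.15 by which library-size or upper-quartile scaling moved the median of all genes. *CCNA2* fell by -1.55, *CCNE2* by -1.01, *CDK4* by -0.22 and *CDK2* by -0.20.

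Inhibitors of these kinases keep pocket proteins bound to E2F. In KYSE30, 5 of 7 such genes rose and 1 fell (median 0.81), beside 30.1% and 32.0% of all tested genes. *CDKN2B*, the p15 gene, rose from 58.0 ± 3.61 to 180.4 ± 5.99 normalized CPM (log2 fold change 1.64) and *CDKN1A*, the p21 gene, from 71.7 ± 1.05 to 216 ± 11.1 (1.59). *CDKN1C*, *CDKN2D* and *CDKN2A* rose by 1.47, 0.81 and 0.50, and *CDKN2C* fell by -1.25. Of the 7 genes, 5 were tested under the U138MG label, of which 1 rose and 2 fell (median -0.10). All tested genes there gave 33.9% higher and 33.6% lower. *CDKN1A* rose from 59.1 ± 1.91 to 113 ± 5.72 (log2 fold change 0.94), and *CDKN2D* fell by -0.43 and *CDKN2C* by -2.25. *CDKN2A* and *CDKN2B* had 0 counts in all of these libraries, which allows a level of up to 0.157 CPM in the smallest of them. *CDKN1B*, the p27 gene, was called in neither line (log2 fold change -0.11, adjusted p = 0.0824, and -0.10, adjusted p = 0.0909). In KYSE30 it was called lower with library size as the only scaling and with upper-quartile scaling, which made 2 of the 7 genes lower there.

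Genes known as E2F targets of G1/S, which serve DNA replication and nucleotide supply, fell throughout KYSE30. All 50 tested genes of this list fell, 48 of them past a log2 fold change of -1, with a median of -1.60. Of all tested genes, 32.0% were called lower, and 7.04% lower past that fold change. The list was chosen with earlier results of these data known. *POLE2*, a subunit of the leading-strand polymerase, fell by -2.22, and the helicase subunit gene *MCM5* from 170 ± 9.70 to 36.7 ± 1.27 normalized CPM (-2.21). For the U138MG label 42 of the 50 fell, 3 rose and 5 were not called, with 5 past a log2 fold change of -1 and a median of -0.48. All tested genes gave 33.6% lower, 33.9% higher and 11.6% lower past that fold change. *RRM2*, a ribonucleotide reductase subunit gene, fell by -1.74 there, and *ASF1B*, *TYMS* and *FBXO5* by -1.41, -1.22 and -1.10. *MCM5* fell by -0.22 and *POLE2* by -0.81. The 3 that rose were *TIPIN* (0.37), *CDC6* (0.34) and *SLBP* (0.19), and *MCM10*, *ORC6*, *GINS3*, *RFC4* and *MSH6* were not called. The *SLBP* rise (SE 0.059) is little larger in size than the -0.15 by which library-size or upper-quartile scaling moved the median of all genes. The response of 47 of the 50 genes was called higher under the U138MG label than in KYSE30 and that of 1 lower, with a median difference of 1.15. Of all genes in this test, 25.5% were called higher.

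Genes of G2/M that DREAM is known to repress fell under both labels. In KYSE30, 49 of 50 fell and 0 rose (median -1.52), and *NUSAP1*, at 0.554 ± 0.187 and 0.648 ± 0.106 normalized CPM, was not called. For the U138MG label 49 fell and 1, *CDC25B*, rose by 0.21, a call lost with library size alone and with upper-quartile scaling (median -1.60). Shares of all tested genes called lower were 32.0% in KYSE30 and 33.6% under the U138MG label. The kinetochore motor gene *CENPE* fell from 11.5 ± 3.07 to 2.41 ± 1.08 normalized CPM in KYSE30 (log2 fold change -2.28) and from 27.3 ± 1.55 to 3.56 ± 1.12 under the U138MG label (-2.95). The mitotic kinesin gene *KIF20B* fell by -2.36 in KYSE30 (SE 0.47) and *CENPF* by -2.93 under the U138MG label (SE 0.21), both with wide spread between replicates. The difference between the lines was called higher under the U138MG label for 10 and lower for 13 of the 50 genes, with a median of -0.11. Of all genes, 25.5% were called higher and 49.9% in either direction, so the number of calls was near that of any gene.

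RB also recruits chromatin repressors to its target genes. In KYSE30, 9 of 13 tested genes of this list fell and 3 rose (median -0.25), beside 32.0% and 30.1% of all tested genes. Under the U138MG label 10 of 14 fell and 2 rose (median -0.14), or 1 with library size alone or upper-quartile scaling. Shares of all tested genes there were 33.6% lower and 33.9% higher. *SUV39H1*, a histone H3 lysine methyltransferase gene, and *CBX5*, a heterochromatin protein gene, fell by -1.15 and -0.98 in KYSE30 and by -0.51 and -0.88 under the U138MG label. *SIN3B*, a corepressor scaffold gene, rose by 0.52 and 0.67, *KMT5B* by 0.35 and 0.14, and *KDM5A* by 0.28 in KYSE30. *HDAC1*, a histone deacetylase gene, fell by -0.35 and -0.34.

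**Figure D5:**
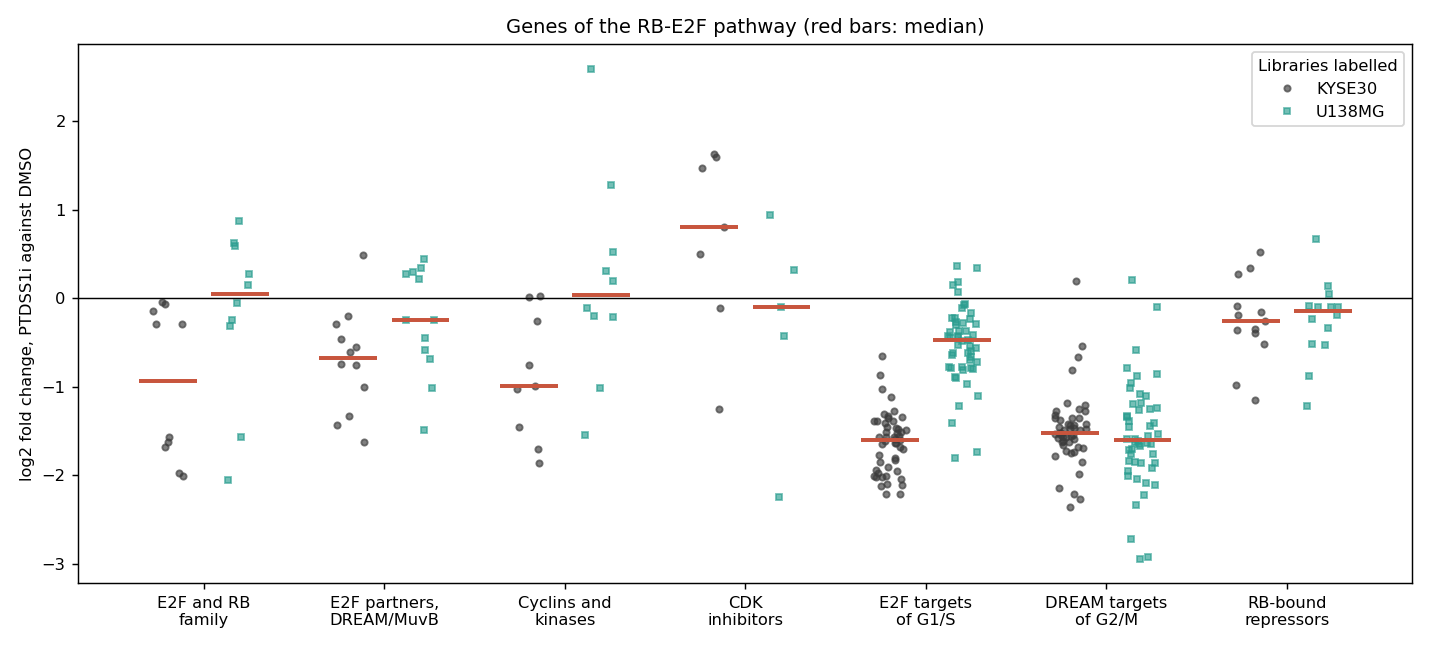
Log2 fold change with PTDSS1i against DMSO (vertical axis) of each gene of the family and of the 6 pathway lists, for KYSE30 (circles) and the libraries labelled U138MG (squares), with red bars at the medians. The G1/S list had medians of -1.60 and -0.48 and the G2/M list of -1.52 and -1.60.

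Which genes followed a member most closely was described over the 12 libraries, as the root mean square difference of log2 CPM relative to the DMSO mean of the same line, among 10271 genes. Nearest to *E2F1* were *RFC4*, *ORC6* and *CDC6*, with differences of 0.0951, 0.127 and 0.127 against a median of 0.853 over all candidates. *CHEK1* and *ATAD2* were among the 3 nearest to *RBL1* (0.0934 and 0.102, median 0.841). For *E2F8* the nearest genes were *PCLAF*, *C21orf58* and *CDCA3* (0.193, 0.213 and 0.217, median 1.44). *MLLT6*, *SEMA4F* and *TRAPPC11* were nearest to *RBL2* (0.0477, 0.0484 and 0.0507, median 0.330). The libraries of a line share their table, batch and scaling, so these values are descriptions of likeness only.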

How the data were processed

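Raw counts of reads per gene, whole numbers without normalization, were deposited by the authors in 2 tables, 1 per line, from poly-A libraries of 3 cultures per group. The KYSE30 table lists 30984 genes and the one labelled U138MG 78691. Whether reads were counted in the same way for both was not tested. The submitters' processing notes name Trimmomatic, STAR, featureCounts and hg38. Versions, annotation and strand setting are not given in the sources used here. The paper's text names no test for these libraries. Every sample column was used, and groups and replicate numbers came from the titles.

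The members and gene lists were chosen with earlier results of these data known. Genes were kept by filterByExpr in edgeR 4.0.16 (R 4.3.3, limma 3.58.1; minimum count 10, minimum total 15) and scaled by TMM. Each line was fitted alone with the robust quasi-likelihood test and Benjamini-Hochberg adjustment over all tested genes, and the interaction of line and treatment over genes in both tables. The fit was tested on simulated counts with few changed genes, as many up as down. That cannot show how the scaling does where most genes were called, as in both lines here. Biological coefficients of variation were 0.0549 (KYSE30) and 0.0452 (U138MG). Intervals and limits from counts cover counting error only, and p-values measure the spread between the cultures of 1 line.

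Positions, exon lengths and exon overlaps came from GENCODE v29 (GRCh38), not known to be the authors' annotation, and promoter windows from RefSeq. All 10 members were given. From each list, the 2 largest called changes with a mean of at least 5 normalized CPM in that line were named, with further members of the partner, cyclin, kinase and inhibitor lists where the text turned on them. *HDAC1*, the genes that make up counts of 5 or fewer, and named genes in the line that did not select them were chosen after their values were seen. For 4 members the most similar genes, at most 3 each, were named. Some genes that these rules select are not reported here. Alternatives were library size alone, upper-quartile scaling, DESeq2 1.42.0, other filters, both lines in 1 fit, a replicate block, leaving out single libraries, and other thresholds. Python 3.11.15 with numpy 2.4.6, pandas 2.3.3 and matplotlib 3.10.9 was used for tables and plots. A protein comparison was not made here.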

Additional observations from a re-analysis of the deposited data

Results flagged for a closer look

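Family genes whose response differed between the lines in the interaction test (adjusted p under 0.05, edgeR) are given as the log2 fold change under the U138MG label minus that in KYSE30. The values were 1.73 for *E2F1*, 0.39 for *E2F2*, 0.84 for *E2F3*, 0.53 for *E2F4*, 0.62 for *E2F5*, 2.52 for *E2F7* and 1.21 for *RBL1*, with 3 libraries in each of the 4 groups. Each line was its own batch, so a difference between lines and one between batches cannot be told apart.

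Of the pathway genes named in the report, those given here met the same condition, as did 49.9% of all genes in this test. Others named there did not, among them *FOXM1*, *TFDP1*, *LIN37*, *CCNA2*, *CCND3*, *CDKN1B*, *RRM2*, *FBXO5*, *CENPE*, *CENPF* and *KIF20B*. Among partners, the difference was 0.61 for *E2F6*, 0.72 for *LIN9*, 1.06 for *LIN52*, 0.81 for *MYBL1*, 0.57 for *MYBL2*, 0.78 for *LIN54*, 0.55 for *HCFC1* and -0.26 for *TFDP2*. Cyclins and kinases gave 1.22 for *CCND1*, 0.50 for *CDK4*, 0.41 for *CDK6*, 1.51 for *CCNE1*, 0.82 for *CCNE2*, 0.76 for *CDK2* and 1.73 for *CDC25A*. The fitted 6.19 for *CCND2* rests on at most 3 counts in any KYSE30 library, depends on the prior count and is no bound. Inhibitors gave -0.69 for *CDKN1A*, -1.18 for *CDKN1C*, -1.04 for *CDKN2C* and -1.28 for *CDKN2D*. G1/S targets gave 1.95 for *MCM5*, 1.90 for *MCM10*, 1.86 for *CDC6*, 1.84 for *TIPIN*, 1.62 for *RFC4*, 1.58 for *ORC6*, 1.37 for *POLE2*, 1.36 for *MSH6*, 1.16 for *GINS3*, 1.14 for *CHEK1*, 0.81 for *SLBP*, 0.65 for *TYMS* and 0.36 for *ASF1B*. G2/M targets gave 0.83 for *CDC25B* and -1.87 for *NUSAP1*, and chromatin repressors 0.59 for *SUV39H1*, -0.42 for *KDM5A* and -0.25 for *KMT5B*. The KYSE30 side of the *NUSAP1* difference rests on low counted levels of 0.554 and 0.648 normalized CPM, with a log2 fold change of 0.19 (SE 0.34). The DMSO libraries labelled U138MG had 101, 91.5 and 98.5. Whether a difference in counting between the 2 tables had a part in this was not tested. For *CDKN2A* and *CDKN2B*, which had no counts under the U138MG label, the difference cannot be read.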

How the results depend on the processing

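Of 420 recomputed log2 fold changes of the family genes, 391 kept their direction and side of the threshold, and of 184 recomputed counts over all genes or the family 173 stayed within 1.5 times the main count. Requiring a log2 fold change beyond 1 as well left 1049 genes higher and 1154 lower in KYSE30, with 5 family genes lower, and 1446 and 2048 under the U138MG label, with 0 family genes higher and 2 lower. In the difference between lines, 1 family gene was called lower, in place of 0, when at least 10 counts were required in every library. With 1 library left out, that count ranged from 0 to 1 and the count called higher from 6 to 7. The same step gave 7 to 8 family genes lower in KYSE30, and 4 to 5 higher and 4 lower under the U138MG label. Signs turned only in values that were not called: *E2F5* in KYSE30 with both lines fitted together (0.0025), *E2F1* under the U138MG label with library size alone (-0.0017), and, without PTDSS1i replicate 1 of that label, *RB1* (0.017, and -0.096 to 0.017 over the 6 left-out libraries) and its difference between lines (0.022, and -0.091 to 0.022 over 12). *RB1* was also called lower under the U138MG label with upper-quartile scaling (-0.20, adjusted p = 0.0035). Calls of *RBL2*, *E2F1* and *E2F2* that changed stand beside their values in the report, as do those of *LIN37* in KYSE30, *CDKN1B* and *CDC25B*. For other list genes, changed calls are not all given. The causes of these changes were not tested beyond what leaving out a library shows.

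The titles do not say whether replicate numbers paired the cultures, and the correlations cannot settle it. Same-numbered libraries had correlations of deviations of 0.075, 0.072 and 0.020 in KYSE30 and 0.0088, -0.0029 and 0.048 under the U138MG label. In KYSE30 every library correlated best with its own number, a hint from the data and not the design. With a replicate block, 5081 genes were higher and 5377 lower in KYSE30, 6019 and 5923 under the U138MG label, and 4824 and 4615 in the difference, and the block left the family counts at 0 and 8, at 4 and 4, and at 7 and 0. Orders of genes were not computed without the length scaling, since levels of different genes compare only per length.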
